A study of Mus musculus with 21 samples.

Results

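The longest chromatin domains of mouse Th2 cells and R1 embryonic stem (ES) cells were described from domain lists made by 3e Hi-C, a chromosome conformation assay that uses several restriction enzymes together. Members were chosen by their length in the deposited combined lists, as domains whose end minus start was 2 Mb or more, and are called very large domains. On chr1 to chr19 this rule took 202 of 1886 domains in the combined Th2 list and 205 of 1978 domains in the combined ES list, which makes 407 of 3864 domains in all. Since length chose them, their number and lengths are given as a description. What was compared is what each very large domain of a cell type became in the lists of the other cell type, and in the separate lists of the libraries.

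The Th2 libraries (n = 2) came from T helper cells of C57BL/6 mice. Naive CD4 T cells, sorted from lymph nodes as CD4+CD25-CD62LhiCD44low, were polarised in culture with IL-4, IL-2 and antibodies to IFNγ and IL-12 over repeated rounds. The ES libraries (n = 2) came from the R1 line, with the strain label 129X1 x 129S1, grown on feeder cells. Cell type and strain therefore changed together and cannot be told apart. A domain list carries no expression, so the labelled cell types were not checked against markers. Chromatin of both was fixed with formaldehyde and cut with CviQ I, CviA II and Bfa I. Separate cultures or mice for the libraries of a cell type are not stated in the labels. A p-value here thus reflects the spread among libraries only, which may be technical. The other 17 of the 21 samples of the series are not analysed here. Domain positions are in the build mm9, in steps of 40 kb, and come with no contact counts, so the sequencing depth is unknown and its part in the results was not tested.

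Chromatin domains, also called topologically associating domains, are segments of the genome in which sites contact one another more often than sites beyond the segment. Cohesin extrudes loops of DNA, and CTCF bound in a given orientation stops it at many domain edges. Genes and the enhancers that act on them usually lie in the same domain. Long domains in mammalian genomes are often poor in genes and replicate late, and large parts of them lie at the nuclear lamina. No annotation of mm9 was used here, so the gene content of the very large domains is not given.

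A property of the lists bears on several results. In all 6 lists, many chromosomes had an edge at exactly 7 or 43 Mb, and in some lists 5 Mb recurred as well. In the combined Th2 list an edge lay at 5 Mb on 7 of 19 chromosomes, at 7 Mb on 16 and at 43 Mb on 15. In the combined ES list the numbers were 5, 15 and 14. No other position was an edge on more than 5 chromosomes in either combined list, so 5 Mb did not stand out in the combined ES list. Nor did it in Th2 library 1 and ES library 1, with 4 chromosomes each against up to 5 at other positions. Of the very large domains, 28 in Th2 and 23 in ES had an edge at one of these positions, and 6 in Th2 and 3 in ES ran exactly from 5 to 7 Mb. A further 5 very large domains in each combined list ended at the last base of their chromosome. Counts of domains kept whole and of matched outer edges in the combined lists are given with and without the domains that have an edge at 5, 7 or 43 Mb.

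The combined lists held similar numbers of very large domains, and the Th2 domains reached further. The 202 Th2 domains covered 615.1 Mb, 31.9% of all length under a Th2 domain. The 205 ES domains covered 552.8 Mb, 27% of all length under an ES domain. The mean length was 3.04 Mb in Th2 (SD 1.34 over domains) and 2.70 Mb in ES (SD 0.73), and the medians were 2.59 and 2.48 Mb. Most were close to the threshold, with 132 of the Th2 and 152 of the ES domains under 3 Mb. Domains of 5 Mb or more numbered 14 in Th2 and 3 in ES, and the longest measured 10.36 Mb in Th2 and 5.4 Mb in ES. In the library lists the longest measured 10.12 and 10.52 Mb in Th2 and 8.24 and 7.2 Mb in ES, a smaller gap than in the combined lists.

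**Figure D1:**
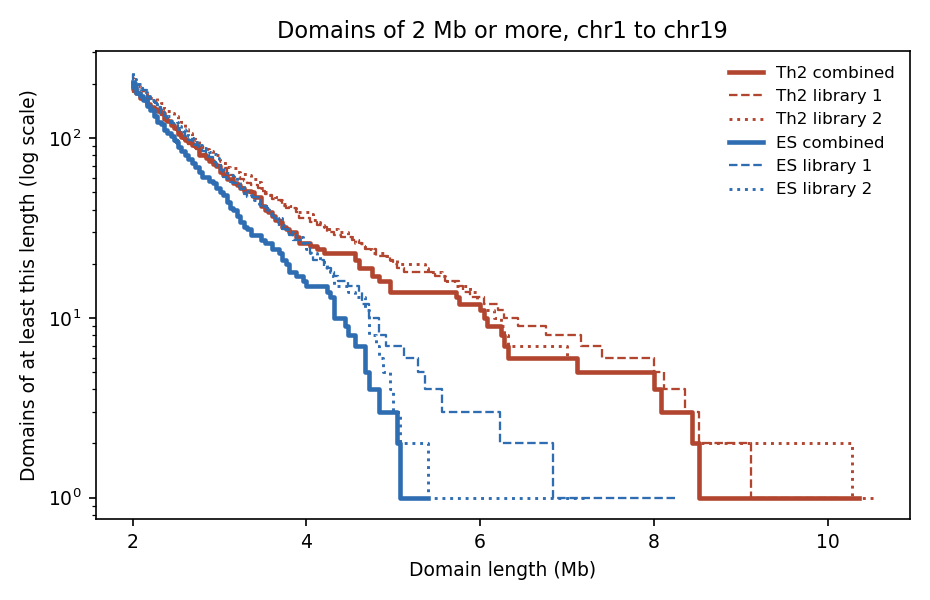
The number of domains on chr1 to chr19 that are at least as long as the value on the x axis (Mb), on a log scale, in the 2 combined lists and the 4 library lists. The curves start close together at 2 Mb, and the Th2 curves run on beyond the ES curves to 10.36 Mb in the combined list.

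Each library list gave its own set of very large domains. Th2 library 1 had 193 and Th2 library 2 had 219, against 226 and 233 in ES libraries 1 and 2. The mean was 206.0 ± 18.4 in Th2 and 229.5 ± 4.95 in ES (SD, n = 2), and every ES library lay above both Th2 libraries. Number and length follow from the rule that chose the domains, so these values are given without a test. The very large domains covered 618.9 and 690.2 Mb in the Th2 libraries and 642.9 and 655.8 Mb in the ES libraries, and the groups overlapped. The difference, Th2 minus ES, was 5.21 Mb over all libraries, -30.4 Mb without Th2 library 2, 40.8 Mb without Th2 library 1, 11.7 Mb without ES library 2 and -1.25 Mb without ES library 1. With other length thresholds it was -19.7 Mb at 1.8 Mb and 59.3 Mb at 2.4 Mb, so no direction is read from it.

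The mean length of the very large domains was 3.21 and 3.15 Mb in the Th2 libraries and 2.84 and 2.81 Mb in the ES libraries, a difference of 0.35 Mb (3.18 ± 0.0391 against 2.83 ± 0.0212 Mb, SD, n = 2). Domains of 5 Mb or more numbered 21 in each Th2 library, 7 in ES library 1 and 4 in ES library 2. The share of all domain length in very large domains was 32.6% and 37.4% in Th2 and 31.9% and 32.3% in ES. Both Th2 libraries lay above both ES libraries by 2.87 percentage points on average, a difference that was 0.478 points without Th2 library 2 and 5.26 without Th2 library 1. Without domains with an edge at 5, 7 or 43 Mb it was 1.75 points, and at a threshold of 1.8 Mb 2.05 points. In both cases the libraries of the cell types no longer separated. At a threshold of 2.4 Mb it was 4.95 points.

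The combined lists were not simple unions of the library lists. ES had fewer very large domains in its combined list (205) than in either library, whereas the combined Th2 list (202) lay between its libraries. A domain was called kept whole in another list when both of its edges lay within 40 kb of the edges of 1 domain there. Of the Th2 very large domains, 103 (51.0%) were kept whole in Th2 library 1 and 110 (54.5%) in Th2 library 2, where the shares of all Th2 domains were 67.0% and 60.2%. Of the ES very large domains, 113 (55.1%) were kept whole in ES library 1 and 131 (63.9%) in ES library 2, where the shares of all ES domains were 65.4% and 64.5%. Both libraries of the cell type held 69 of the Th2 domains (34.2%, against 43.7% of all Th2 domains) and 79 of the ES domains (38.5%, against 46.5% of all ES domains). Neither library held 58 of the Th2 and 40 of the ES domains with both edges in place. The like counts over all domains are not given, so these counts are not read as high or low.

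Each very large domain was then placed in 1 of 5 classes by the combined list of the other cell type. It was kept whole, or it lay inside a longer domain, or it was divided, meaning that 2 or more domains of the other list had 50% or more of their own length within it. The remaining domains held a single such domain with other edges, or none. A domain said to hold none could still overlap a domain of the other list that lay mostly outside it. An edge of the other list was counted as inside when it lay more than 40 kb from both edges of the very large domain.

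Among Th2 very large domains the most frequent class in the ES list was division. Of the 202, 109 (54.0%) were divided in ES, 43 (21.3%) held a single ES domain with other edges, 26 (12.9%) were kept whole, 20 (9.9%) lay inside a longer ES domain and 4 (1.98%) held no ES domain. Over all Th2 domains of any length, 15.0% were divided in ES, 18.9% held a single ES domain with other edges, 23.9% were kept whole, 36.5% lay inside a longer domain and 5.67% held none. A longer domain has more room for several domains, so these shares depend on length. Among the 117 Th2 domains of 1.6 Mb up to 2 Mb, 48 (41.0%) were divided and 29 (24.8%) kept whole. Per length, the Th2 very large domains did not hold more ES edges than other Th2 domains. The 367 ES edges inside them came to 0.597 per Mb, against 0.628 per Mb over all Th2 domains. In 47 of the 202 (23.3%) no ES edge lay inside, against 61.7% of all Th2 domains.

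Among ES very large domains no class of the Th2 list held more than 24.4%. Of the 205, 47 (22.9%) were divided in Th2, 50 (24.4%) lay inside a longer Th2 domain, 49 (23.9%) held a single Th2 domain with other edges, 26 (12.7%) were kept whole and 33 (16.1%) held no Th2 domain. Over all ES domains, 14.3% were divided in Th2, 39.2% lay inside a longer Th2 domain, 15.6% held a single Th2 domain with other edges, 22.8% were kept whole and 8.14% held none. Among the 163 ES domains of 1.6 Mb up to 2 Mb, 35 (21.5%) were divided and 28 (17.2%) kept whole. The 163 Th2 edges inside the ES very large domains came to 0.295 per Mb, against 0.467 per Mb over all ES domains. In 99 of the 205 (48.3%) no Th2 edge lay inside, against 65.9% of all ES domains.

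The library lists of the other cell type gave the classes again for the same domains. Of the Th2 very large domains, 87 (43.1%) were divided in ES library 1 and 93 (46.0%) in ES library 2, where the shares of all Th2 domains were 11.3% and 11.7%. Kept whole were 26 (12.9%) and 34 (16.8%), against 20.0% and 20.5% of all Th2 domains. Of the ES very large domains, 46 (22.4%) were divided in Th2 library 1 and 34 (16.6%) in Th2 library 2, against 15.4% and 9.76% of all ES domains. Kept whole were 26 and 24 of them, against 22.8% and 19.6% of all ES domains.

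**Figure D2:**
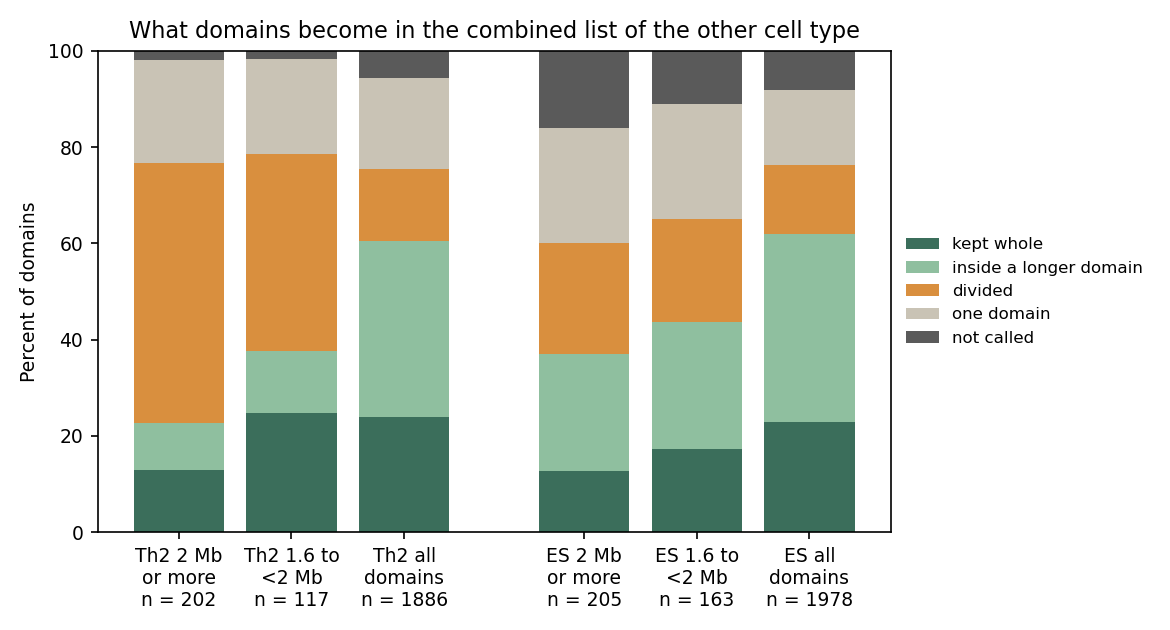
Percent of domains in each of the 5 classes in the combined list of the other cell type, for very large domains, domains of 1.6 Mb up to 2 Mb and all domains of the Th2 and the ES list. The divided class makes up 54.0% of the Th2 very large domains and 22.9% of the ES very large domains.

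Domains do not cover the whole genome in these lists. Of the length of Th2 very large domains, 11.1% (68.3 Mb) lay under no ES domain, where the value over all Th2 domains was 8.2%. Of the length of ES very large domains, 25.4% (140.3 Mb) lay under no Th2 domain, where the value over all ES domains was 13.4%. Counted over covered length only, the edges inside came to 0.671 per Mb in the Th2 and 0.395 per Mb in the ES very large domains, against 0.684 and 0.539 per Mb over all domains of each list. Per covered length the value in ES very large domains was thus also lower than over all ES domains. The part of uncovered length in this difference was not tested.

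The difference between the cell types was examined again with library lists alone, taking the domains of 2 Mb or more of each library and looking them up in each library of the other type. In the 4 library pairs, 52.5% to 56.2% of Th2 very large domains were divided in ES, and 24.3% to 33.6% of ES very large domains were divided in Th2, so the ranges did not overlap. The means were 53.9% and 28.5%, a difference of 25.3 percentage points. ES libraries 1 and 2 held 2790 and 2892 edges, and Th2 libraries 1 and 2 held 2500 and 2479. The very large domains were also longer in the Th2 libraries, with means of 3.21 and 3.15 Mb against 2.84 and 2.81 Mb. The part of edge number and length in the difference was not tested. Edges inside came to 0.577 to 0.633 per Mb in Th2 domains and 0.331 to 0.381 per Mb in ES domains, with means of 0.602 and 0.352. The share of length under no domain of the other type was 10.6% to 11.9% for Th2 and 23.2% to 27.8% for ES domains. The 4 libraries can be assigned to 2 groups of 2 in 6 ways. Each of the 3 differences had an exact two-sided permutation p of 0.333, the smallest the design allows, so none can pass the usual threshold. The 4 pairs share libraries and are not 4 replicates. Shares of all domains divided in the other cell type ranged from 11.0% to 16.2% for Th2 and from 13.2% to 20.2% for ES lists over the same pairs. Edges inside all domains came to 0.556 to 0.63 per Mb for Th2 and 0.465 to 0.508 per Mb for ES lists, and the share of all length under no domain of the other type was 8.55% to 9.0% and 13.8% to 17.2%. The directions of the differences in edges and in uncovered length were thus present over all domains as well. For division the ranges over all domains overlapped, and the Th2 range lay lower at both ends. Whether the differences change in size for very large domains was not tested.

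The same lookup between libraries of 1 cell type gives a background for these values. Calling, depth and any separate cultures or mice cannot be told apart in it. Of the very large domains, 40.9% of Th2 library 1 were kept whole in library 2 and 35.6% in the reverse direction, and for ES libraries the values were 42.0% and 39.9%. Between cell types 9.59% to 15.5% were kept whole, below all 4 same-type values. For all domains the same-type values were 46.1% to 55.6% and the values between cell types 18.4% to 21.7%. Division was frequent within a cell type too. It took 15.5% and 32.4% of very large domains between the Th2 libraries and 26.1% and 21.5% between the ES libraries. Over all domains these shares were 3.82% and 16.8% in Th2 and 8.11% and 8.32% in ES. The ES very large domains divided in Th2 (24.3% to 33.6%) overlapped in range with the same-type values of very large domains. The Th2 very large domains divided in ES lay above all of these values.

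**Figure D3:**
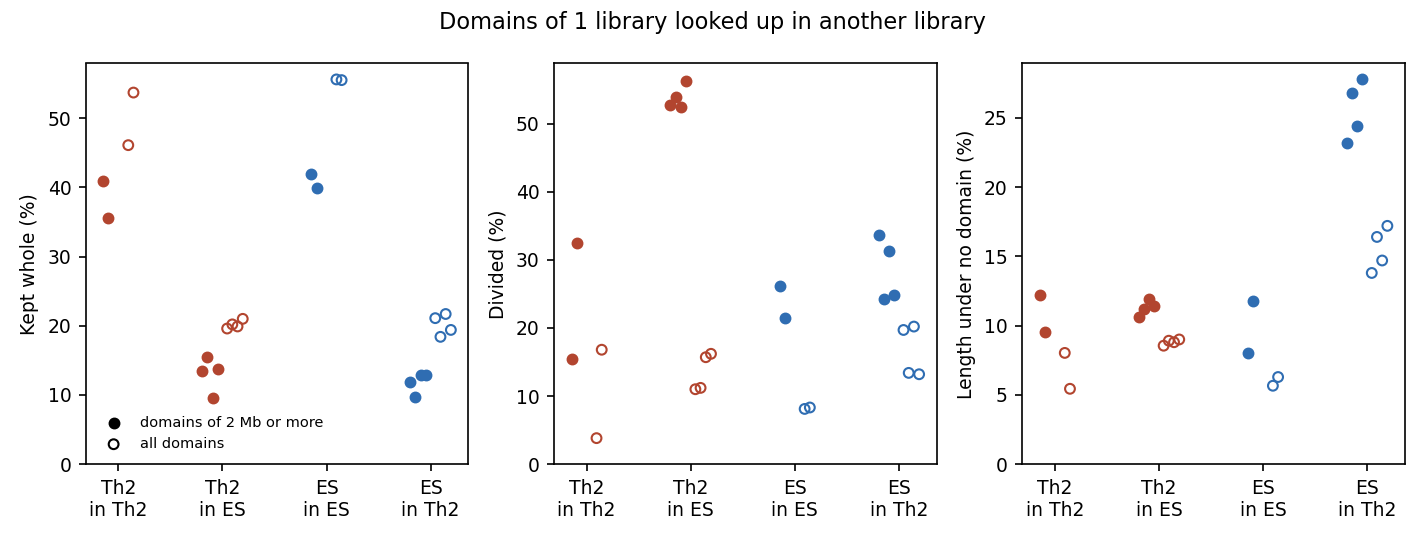
Values for the very large domains of 1 library looked up in another library, for pairs of the same cell type and of different cell types, with each point a pair of libraries. Shares kept whole are 35.6% to 42.0% within a cell type and 9.59% to 15.5% between cell types, and Th2 domains in ES lists have the highest shares divided.

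The classes also changed with length. Among Th2 very large domains, the share divided in ES was 36.5% of 74 domains under 2.4 Mb, 51.7% of 58 domains from 2.4 to 3 Mb, 63.6% of 44 domains from 3 to 4 Mb and 92.3% of 26 domains of 4 Mb or more. ES edges inside per Mb stayed between 0.548 and 0.643 over these classes, so the number of edges per domain grew with its length. Of the 26 longest, 24 were divided, chr3:146680001-151280000 was kept whole and chr2:94320001-100320000 held a single ES domain with other edges. Among ES very large domains, the share divided in Th2 was 22.3% of 94 domains, 31.0% of 58, 18.9% of 37 and 6.25% of 16 in the same classes. Their Th2 edges per Mb were 0.33, 0.38, 0.234 and 0.123. The share of their length under no Th2 domain was 13.5%, 22.9%, 38.2% and 41.7%, where that of Th2 domains under no ES domain was 4.78%, 10.9%, 13.4% and 15.6%.

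**Figure D4:**
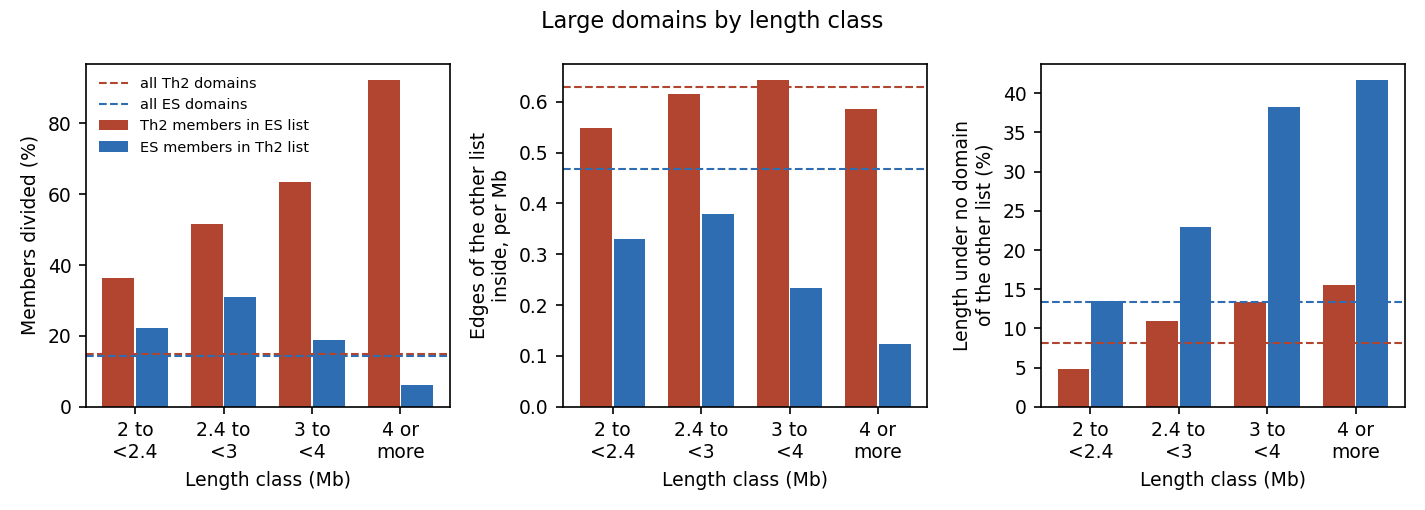
Very large domains of Th2 and ES in 4 length classes (Mb), with the percent divided in the other cell type, the edges of the other cell type inside per Mb and the percent of length under no domain of the other cell type. The divided share of Th2 domains goes from 36.5% to 92.3%, and the uncovered share of ES domains from 13.5% to 41.7%.

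The 6 longest Th2 domains were all divided in the combined ES list and in both ES libraries. The longest, chr1:109120001-119480000 (10.36 Mb), corresponded to 4 ES domains of 1.28, 1.52, 0.76 and 5.04 Mb, with 7 ES edges inside and 17.4% of its length under no ES domain. Its start was not the same in the Th2 libraries: library 2 had a domain of 10.28 Mb from 109200001, and library 1 had one of 5.8 Mb from 113680001, both ending at 119480000. The stretch before 113680001 was thus in this domain in Th2 library 2 alone. ES library 1 put 4 domains of 3.68, 0.52, 2.36 and 2.0 Mb there, and ES library 2 put 4 of 1.48, 1.2, 0.72 and 5.0 Mb.

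The domain chr8:98480001-106560000 (8.08 Mb) had nearly the same edges in both Th2 libraries. Th2 library 1 had 8.12 Mb and library 2 had 8.08 Mb from the same start. The combined ES list divided it at a single place into chr8:98480001-103320000 (4.84 Mb) and chr8:103360001-106560000 (3.2 Mb), leaving 0.495% of its length under no ES domain. ES library 1 had domains of 4.84 and 2.6 Mb, and ES library 2 had domains of 4.72 and 3.2 Mb. Both resulting ES domains are themselves very large, and the first is the fourth longest of the ES list.

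On chr4, the domain chr4:24280001-31400000 (7.12 Mb) was likewise divided into 2 very large ES domains of 2.36 and 4.68 Mb, with 2.81% under no ES domain. Th2 library 2 had this domain with the same edges, and Th2 library 1 had a longer one of 10.12 Mb over it. The domain chr4:74200001-82640000 (8.44 Mb) held 4 ES domains of 2.16, 0.56, 1.52 and 2.36 Mb, with 24.2% under none. It was 8.36 Mb long in Th2 library 1 and 8.44 Mb in library 2. The ES libraries held 3 domains each at this place, of 2.12, 0.48 and 4.2 Mb and of 1.48, 3.4 and 2.36 Mb, so the division was found in both while its positions moved between them.

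The domain chr6:73280001-81800000 (8.52 Mb) held 4 ES domains of 0.88, 1.36, 0.92 and 3.36 Mb, with 23.9% under none. Th2 library 1 had the same edges and Th2 library 2 a domain of 10.52 Mb from the same start. ES library 1 had 4 domains there, with 28.2% under none. ES library 2 had 3, the first of 4.28 Mb, with 3.76% under none, so the uncovered share was not the same in the ES libraries. The domain chr3:43000001-51000000 (8.0 Mb), which starts at the recurrent position 43 Mb, held 4 ES domains of 2.16, 1.88, 1.48 and 2.12 Mb, with 4.5% under none. Both Th2 libraries had it with the same edges. ES library 1 had 4 domains from the same start to the same end, and ES library 2 had 3.

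The 6 longest ES domains fell into other classes. The longest, chr1:146240001-151640000 (5.4 Mb), had 85.9% of its length under no Th2 domain, and the only domain of the combined Th2 list that reached into it, chr1:145520001-147000000, measured 1.48 Mb. ES library 2 had the same edges, and ES library 1 had a domain of 5.28 Mb with the same end. The second, chr1:100600001-105680000 (5.08 Mb), met no Th2 domain in the combined list or in either Th2 library. ES library 2 had it with the same edges and ES library 1 had a domain of 3.28 Mb in its right part.

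A further 2 of these ES domains lay inside the long Th2 domains described above. The domain chr1:114480001-119520000 (5.04 Mb) was the last part of the 10.36 Mb Th2 domain, within the same 40 kb at its end, and it lay inside a longer domain in both Th2 libraries. ES library 2 had it with 5.0 Mb, whereas ES library 1 had 2 domains of 2.36 and 2.0 Mb. The domain chr8:98480001-103320000 (4.84 Mb) lay inside the 8.08 Mb Th2 domain in the combined list and in both Th2 libraries.

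The domain chr3:20440001-25160000 (4.72 Mb) shared its start with the Th2 domain chr3:20440001-22400000 (1.96 Mb), and 58.5% of it lay under no Th2 domain. Both Th2 libraries had the 1.96 Mb domain. ES library 2 had the 4.72 Mb domain, and ES library 1 had domains of 2.0 and 0.88 Mb with a space between them. The domain chr3:146640001-151320000 (4.68 Mb) was kept whole as the Th2 domain chr3:146680001-151280000 (4.6 Mb).

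**Figure D5:**
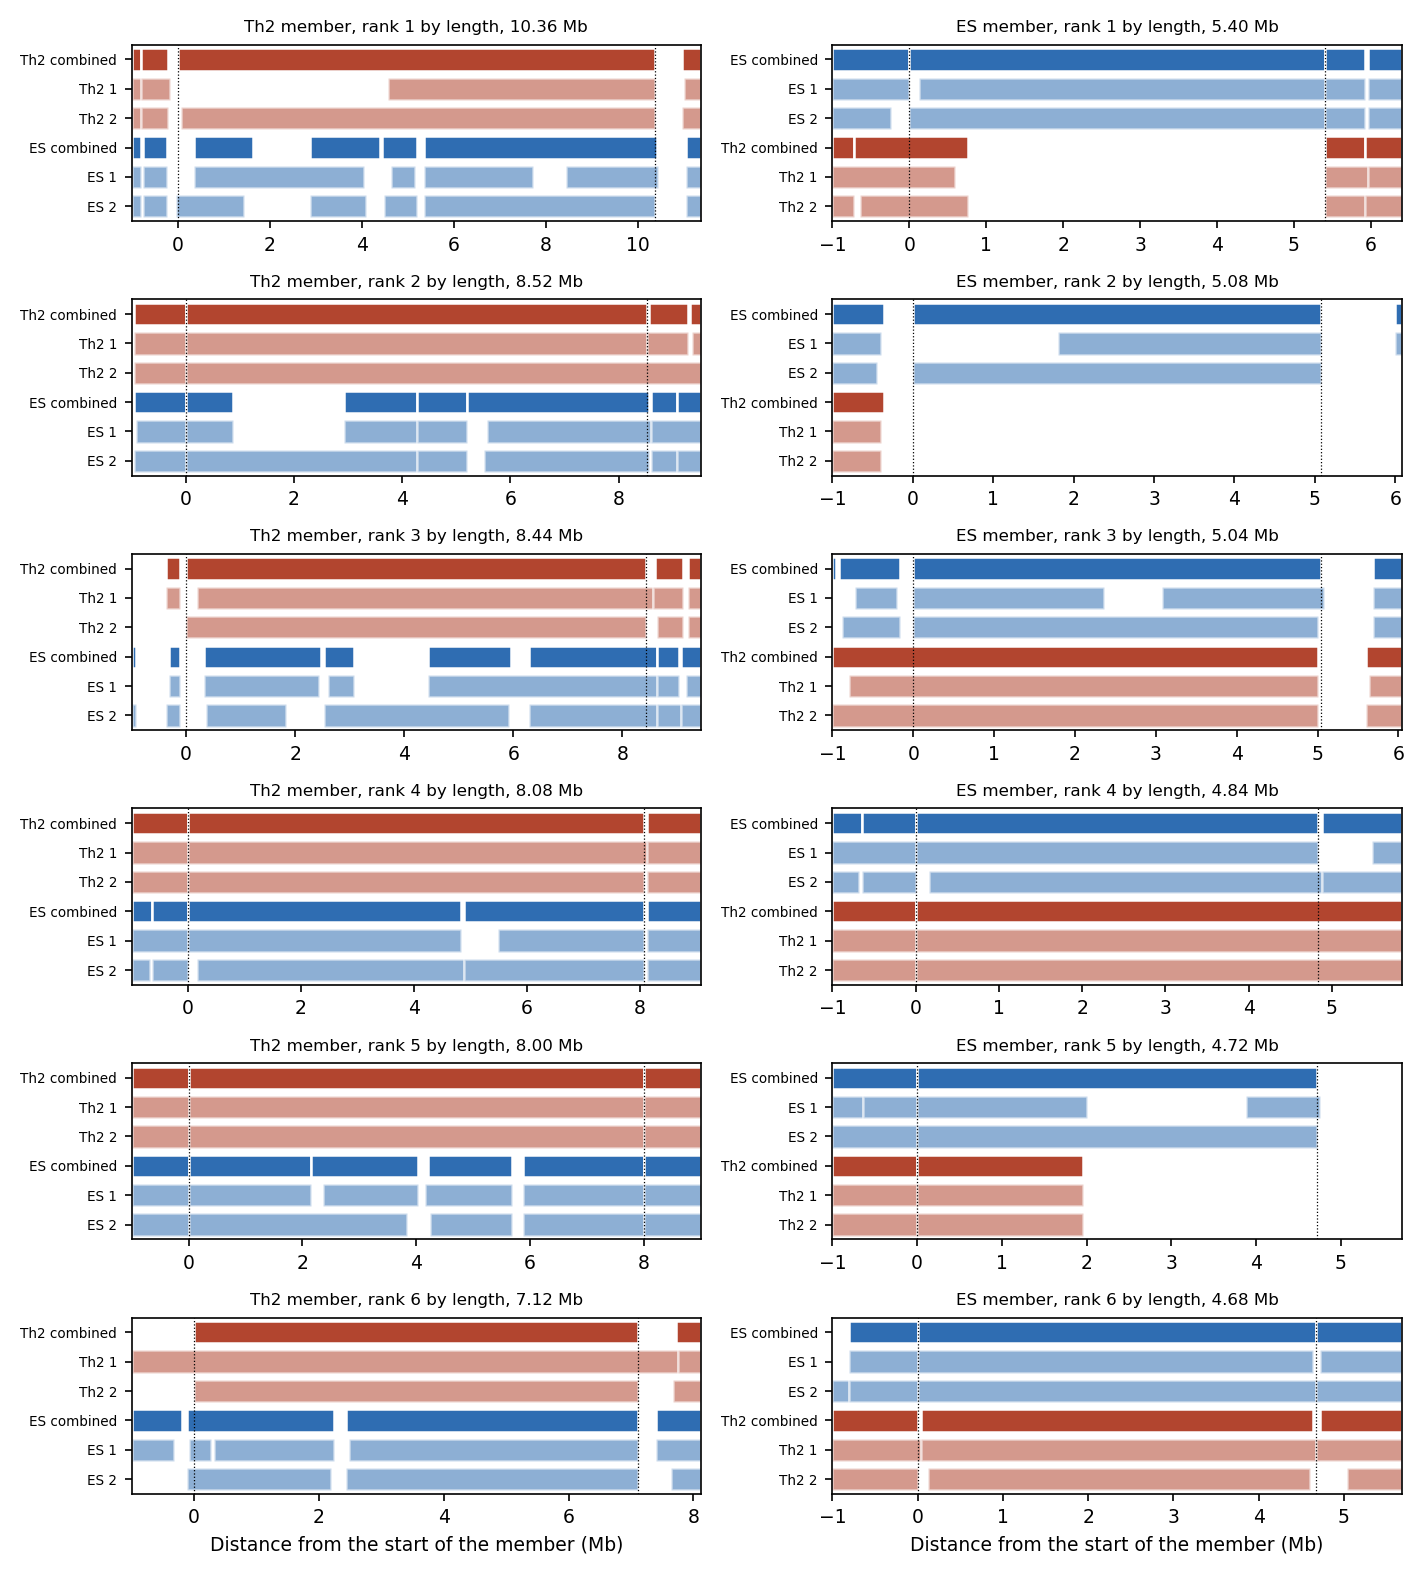
The 6 longest Th2 and the 6 longest ES very large domains, drawn by distance from their start (Mb), with the domains of the 2 combined lists and the 4 library lists over the same stretch as bars. The Th2 domains face 2 to 4 ES domains each, and 3 of the ES domains have more than 50% of their length under no Th2 domain.

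The largest number of ES edges lay inside chr8:43000001-49240000 (6.24 Mb), which starts at the recurrent position 43 Mb. It held 8 ES edges and 5 ES domains of 3.36, 0.64, 0.8, 0.48 and 0.32 Mb, and the ES libraries had 8 and 9 edges inside it. It was kept whole in both Th2 libraries. The next were the chr1 domain of 10.36 Mb and the chr4 domain of 8.44 Mb, with 7 edges each. A much shorter domain, chr5:91360001-94200000 (2.84 Mb), held 6 ES edges and ES domains of 0.4, 0.48, 0.68 and 1.12 Mb. Both Th2 libraries kept it whole, but the ES libraries had only 2 and 4 edges inside and 2 domains each.

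Among ES very large domains the most Th2 edges lay inside chr3:106680001-109320000 (2.64 Mb), with 6 edges and Th2 domains of 0.36, 1.08 and 0.24 Mb. The Th2 libraries had 7 and 4 edges there. ES library 2 had this domain with the same edges, and ES library 1 had domains of 2.12 and 0.4 Mb. The domain chr4:47400001-49680000 (2.28 Mb) held 4 edges and Th2 domains of 1.2, 0.64 and 0.16 Mb, and chr11:46640001-49360000 (2.72 Mb) held 4 edges and Th2 domains of 1.88, 0.4 and 0.28 Mb. The Th2 libraries had 2 edges each in both of these. Both ES libraries had the chr4 domain with the same edges, but neither had the chr11 domain. From its start they had domains of 1.96 and 1.92 Mb, under the threshold. These ended at 48600000 and 48560000, and the second of the 3 Th2 domains starts at 48560001. The ES libraries thus ended a domain within 40 kb of a Th2 edge counted as inside. The domain chr2:17320001-19320000 (2.0 Mb) was divided into Th2 domains of 1.0, 0.44 and 0.56 Mb, with 3 edges in the combined list and 3 and 2 in the libraries. It was kept whole in both ES libraries.

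Over all divided Th2 domains, 109 gave 263 ES domains with a median length of 1.12 Mb (0.24 to 5.04 Mb). Most were divided in 2 (76 domains), 22 in 3, 10 in 4 and 1 in 5. Of the 263 ES domains 51 were themselves 2 Mb or longer, and they lay in 42 of the divided Th2 domains. Both outer edges of the Th2 domain were also ES edges in 44 of the 109, 1 outer edge in 46 and neither in 19. Division was found in both ES libraries for 70 of the 109 and in at least 1 for 103. The 47 divided ES domains gave 104 Th2 domains with a median of 0.9 Mb (0.16 to 4.76 Mb), of which 15 were very large. They were divided in 2 (37 domains) or 3 (10). Division was found in both Th2 libraries for 26 and in at least 1 for 44. Such counts over all divided domains, 282 in each list, are not given. The library counts are therefore not read as high or low for very large domains.

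Edges inside very large domains were looked up in the library lists. Of the 367 ES edges inside Th2 very large domains, 209 (56.9%) lay within 40 kb of an edge in both ES libraries, against 71.3% of all 3040 ES edges, and 35 in neither. Near an edge of a Th2 library lay 48 (13.1%), and 174 were in both ES libraries and in no Th2 library. Of the 163 Th2 edges inside ES very large domains, 80 (49.1%) were in both Th2 libraries, against 70.7% of all 2622 Th2 edges, and 18 in neither. Near an edge of an ES library lay 26 (16.0%), and 64 were in both Th2 libraries and in no ES library. The nearest end of the very large domain was at a median distance of 0.8 Mb for the ES edges and 0.6 Mb for the Th2 edges.

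The classes were also counted for the very large domains that both libraries of their own cell type kept whole. Of the 69 such Th2 domains (207.8 Mb), 38 (55.1%) were divided in ES and 13 kept whole, with 0.621 ES edges per Mb and 8.14% of their length under no ES domain. Of the 79 such ES domains (207.2 Mb), 18 (22.8%) were divided in Th2, 23 (29.1%) lay inside a longer Th2 domain and 16 were kept whole, with 0.246 Th2 edges per Mb. The share of their length under no Th2 domain was 17.8%, lower than the 25.4% of all ES very large domains. The divided shares were within 2 percentage points of those of all very large domains, 54.0% and 22.9%. The shares kept whole were higher than among all very large domains, 18.8% against 12.9% in Th2 and 20.3% against 12.7% in ES. These domains were picked because their edges recurred between libraries. The like shares over domains of any length picked in this way are not given. The values are therefore not read as particular to very large domains.

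Very large domains that lay inside a longer domain were set beside the domain that contained them. The 20 Th2 domains in this class lay in 20 ES domains with a median length of 2.78 Mb (2.24 to 4.32 Mb), a median of 1.15 times their own. The 50 ES domains lay in 45 Th2 domains with a median of 3.58 Mb (2.16 to 10.36 Mb), a median of 1.42 and at most 3.91 times their own. Of these Th2 domains 5 held 2 or more ES very large domains. Both libraries of the other type also had a longer domain over 12 of the 20 Th2 and 31 of the 50 ES domains. The like counts over all domains of this class are not given.

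Of the ES very large domains, 46 (22.4%) had 50% or more of their length under no Th2 domain, against 6.72% of all ES domains. The count was 47 in Th2 library 1 and 51 in Th2 library 2, against 7.84% and 9.25% of all ES domains, and 34 domains met it in all 3 lists, against 5.11% of all ES domains. For Th2 very large domains under no ES domain the count was 10 (4.95%, against 2.49% of all Th2 domains). It was 12 in ES library 1 and 9 in ES library 2, against 3.45% and 3.55% of all Th2 domains, and 5 met it in all 3 ES lists, against 1.33% of all Th2 domains. No Th2 domain at all lay over 20 of the 205 ES very large domains in the combined list, against 2.83% of all ES domains. A single Th2 very large domain met no ES domain there, against 0.954% of all Th2 domains. For 15 of them, 46.0 Mb in all and 2.0 to 5.08 Mb each, this was so in both Th2 libraries as well, against 2.17% of all ES domains. No Th2 very large domain was without an ES domain in all 3 ES lists, against 0.477% of all Th2 domains. These 15 lay on 7 chromosomes, with 4 on chr1, 4 on chr14 and 3 on chr10. On chr14, named after the values were seen, they were chr14:90800001-94320000 (3.52 Mb), chr14:94440001-97320000 (2.88 Mb), chr14:106920001-110040000 (3.12 Mb) and chr14:111360001-115080000 (3.72 Mb). At least 1 ES library kept 12 of the 15 whole and both kept 6. A list without a domain at a place does not show how its contacts lie there.

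A small set of very large domains was found in both cell types. In 26 pairs a Th2 and an ES very large domain had both edges within 40 kb of each other, and in 13 of these the edges were identical. Of the 26, 10 had an edge at 5, 7 or 43 Mb, and without all domains with such an edge 16 of 174 Th2 (9.2%) and 16 of 182 ES domains (8.79%) were kept whole. The 4 library lists held 10 of the 26 pairs whole throughout, of which 5 have no recurrent edge: chr1:188600001-190760000 (2.16 Mb), chr3:154280001-157160000 (2.88 Mb), chr8:116960001-119000000 (2.04 Mb), chr11:17200001-19680000 (2.48 Mb) and chr17:9200001-12200000 (3.0 Mb). A further 8 pairs were whole in 3 libraries, 6 in 2 and 2 in 1. The like counts over all 451 domains kept whole between the combined lists are not given.

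The longest pair was chr3:146680001-151280000 in Th2 (4.6 Mb) and chr3:146640001-151320000 in ES (4.68 Mb), whole in 3 libraries. The next, chr5:7000001-10880000 (3.88 Mb), had identical edges and was whole in all 4 libraries, and it starts at the recurrent position 7 Mb. The domain chr5:126000001-129480000 (3.48 Mb) was identical in the combined lists and whole in both Th2 libraries, but in neither ES library. The Th2 domain chr7:12160001-15320000 (3.16 Mb) ended 40 kb beyond its ES partner and was whole in 1 library only. The other two of the 6 longest, chr17:9200001-12200000 (3.0 Mb) and chr3:154280001-157160000 (2.88 Mb), were whole in all 4 libraries.

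Very large domains of both lists covered 308.9 Mb in common, 50.2% of the very large Th2 length and 55.9% of the very large ES length. Of all Th2 domain length 21.4% lay under ES very large domains, and of all ES domain length 26.7% lay under Th2 very large domains. A further 306.2 Mb lay in Th2 and 244.0 Mb in ES very large domains alone. In all, 103 pairs overlapped by 50% or more of both domains. Among these pairs the longest overlaps were 4.84 Mb at the chr8 domain from 98480001, 4.68 Mb between chr4:24280001-31400000 in Th2 and chr4:26720001-31400000 in ES, and 4.6 Mb at the kept chr3 pair. Then came 4.52 Mb between chr2:94320001-100320000 in Th2 (6.0 Mb) and chr2:94280001-98840000 in ES (4.56 Mb), where the starts match and the Th2 domain runs on. They were followed by the chr5 pair from 7000001 with 3.88 Mb, and by chr16:81080001-84880000 in Th2 (3.8 Mb) with chr16:81160001-84880000 in ES, which overlapped by 3.72 Mb. No very large domain of the other list overlapped 82 of the 202 Th2 and 75 of the 205 ES domains. Over all domains, most of which are short, this held for 86.0% in Th2 and 79.7% in ES.

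Outer edges were also matched one by one. Both outer edges were edges of the other list, of 1 domain or of different ones, in 79 Th2 domains (39.1%, against 36.4% of all Th2 domains) and in 62 ES domains (30.2%, against 33.6% of all ES domains). Exactly 1 outer edge matched in 94 of 202 Th2 and 107 of 205 ES domains, and none in 29 and 36. Over all domains exactly 1 matched in 931 of 1886 Th2 and 945 of 1978 ES domains, and none in 268 and 369. Without the very large domains that have an edge at 5, 7 or 43 Mb, both outer edges matched in 35.1% in Th2 and 26.9% in ES. The shares over all domains without such edges are not given, so these values have no like background.

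The very large domains were spread over all 19 autosomes, unevenly. In the combined Th2 list the share of domain length in very large domains was highest on chr8 (45.7%, with 32.5% in ES), chr3 (44.7%, 35.5% in ES) and chr4 (41.9%, 33.2% in ES). The library values on chr3 were 44.9% and 53.7% in Th2 and 40.8% and 41.7% in ES, and on chr4 39.9% and 41.5% in Th2 and 39.2% and 40.4% in ES. In the combined ES list it was highest on chr14 (41.7%, with 36.3% in Th2), where the ES libraries had 44.9% and 51.2% and the Th2 libraries 33.3% and 47.0%. The lowest values of the combined lists, 11.9% on chr13 in Th2 and 12.8% on chr9 in ES, were not found in the libraries, which had 24.7% and 26.7% on chr13 in Th2 and 18.6% and 25.6% on chr9 in ES. The Th2 share exceeded the ES share on 12 of 19 chromosomes in the combined lists. Both Th2 libraries lay above both ES libraries on 9 chromosomes, chr8 among them with 47.8% and 51.3% in Th2 against 35.3% and 34.5% in ES, and below them on 1.

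The neighbours of very large domains, taken as the next domains listed also across a gap, were somewhat longer than those of all domains. Of the directly neighbouring domains, 16.5% in Th2 and 19.5% in ES were also very large, where the shares over the neighbours of all domains were 10.4% and 10.2%. The median neighbour measured 0.92 Mb in Th2 and 1.04 Mb in ES, against 0.72 and 0.8 Mb over all domains. Very large domains abutted their neighbour without a gap on 46.9% of sides in Th2 and 39.6% in ES, against 61.6% and 46.8% of sides of all domains. At most 4 very large domains in Th2 and 3 in ES followed each other with no shorter domain listed between them, and stretches with no domain could lie between them.

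The threshold lies on a continuous range of lengths. At 1.92, 1.96, 2.0 and 2.04 Mb the Th2 list had 10, 9, 14 and 11 domains and the ES list 10, 15, 13 and 13. Just inside it were chr3:5000001-7000000, chr3:26880001-28880000 and chr8:54240001-56240000 in Th2, and chr1:5000001-7000000, chr1:67200001-69200000 and chr1:92800001-94800000 in ES, all of 2.0 Mb. Just outside, at 1.96 Mb, were chr1:185320001-187280000, chr2:77720001-79680000 and chr3:20440001-22400000 in Th2, and chr1:173440001-175400000, chr3:110960001-112920000 and chr4:43000001-44960000 in ES.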

How the data were processed

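The 3e Hi-C libraries, 2 of Th2 and 2 of R1 ES cells, were grouped by sample title. The submitters' processing notes name Bowtie2 and the build mm9. The tool that called domains and the combining of libraries were not given in the sources used here. Domains were deposited by the authors as chromosome, start and end with no score or contact count, for each library and for each cell type combined. Positions are printed 1-based in mm9.

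Domains of chr1 to chr19 with end minus start of 2 Mb or more were compared between lists with an edge tolerance of 40 kb. On lists simulated from the class rules themselves, 1000 of 1000 classes were recovered. This checks the code only and does not measure how reliable the classes are in the real lists. Directions over library pairs were compared by exact permutation tests over the 6 ways to assign 4 libraries to the cell types. The same test, planned for number and length per library, is not reported, since length chose the domains. Domains named in the text are the 6 longest of each list, the 6 longest kept whole, the 4 with most edges inside, 3 on each side of the threshold and the 6 longest overlaps, and others are named as chosen after their values were seen. The 5 pairs whole in all libraries without a recurrent edge were chosen in that way. The members and rules were chosen with earlier results of these data known. Members on chr18 (9 in Th2, 6 in ES) were counted and not named. Alternatives were thresholds of 1.8 and 2.4 Mb, tolerances of 0 and 80 kb, single libraries in place of combined lists, trimmed domains and chrX. Calculations used Python 3.11.15, numpy 2.4.6, scipy 1.17.1 and matplotlib 3.10.9.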

Additional observations from a re-analysis of the deposited data

Results flagged for a closer look

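Chromosome X was left out of the comparisons and held many very large domains in every list. There were 19 among 55 domains in the combined Th2 list (34.5%) and 21 among 64 in the combined ES list (32.8%), where the autosomes had 10.7% and 10.4%. Th2 libraries 1 and 2 had 19 and 17, and ES libraries 1 and 2 had 16 and 20, so the groups overlapped. Very large domains held 69.4% of the domain length on chrX in the combined Th2 list and 66.3% in the combined ES list. The longest were chrX:108400001-120240000 in Th2 (11.84 Mb) and chrX:58400001-65920000 in ES (7.52 Mb).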

How the results depend on the processing

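Of the alternatives, 5 changed the direction of a difference between cell types or directions, and the others of these kept the direction but not always the size. Of the shares and densities, 14 moved outside the binomial or counting interval (95%) of the main value. This interval takes the domains of a list as independent, and domains are not replicates. It served as a yardstick for the size of a move and not as a test. Settings that leave out domains with an edge at 5, 7 or 43 Mb, the mean length and the comparison of directions over library pairs were added after the data were seen. The number of very large domains per library, Th2 minus ES, became 2.0 at a threshold of 2.4 Mb. The Mb in very large domains, Th2 minus ES, became -19.7 at 1.8 Mb, 59.3 at 2.4 Mb, 26.4 with domains trimmed by 40 kb at each end and -22.5 without domains with a recurrent edge; the cause was not tested. With all libraries, the difference in share of length ranged from 1.75 points without recurrent edges to 4.95 at 2.4 Mb. Leaving out 1 library gave -36.5 to -10.5 domains, -30.4 to 40.8 Mb, 0.478 to 5.26 percentage points of length and 0.322 to 0.377 Mb of mean length. For the differences between directions it gave 20.9 to 29.7 percentage points divided, 0.216 to 0.286 edges per Mb and -15.6 to -12.9 percentage points of uncovered length. With library numbers as a replicate block the differences were -23.5 domains, 5.21 Mb, 2.87 percentage points and 0.35 Mb. The labels do not say that a number marks a shared preparation, and 2 pairs can give no exact sign-flip p below 0.5.

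With edges required to be identical (tolerance 0 kb), 6.44% of Th2 and 6.34% of ES domains were kept whole in the other type, and 34.7% and 36.6% of Th2 and 34.1% and 45.4% of ES domains in libraries 1 and 2 of their own type; fewer edges match by construction. Without recurrent edges 8.79% of ES domains were kept whole. Th2 domains were divided in 64.1% of cases at 2.4 Mb, and in 43.1% and 46.0% in ES libraries 1 and 2, with 0.533 ES edges per Mb in ES library 1. ES domains were divided in 16.6% of cases in Th2 library 2. At 2.4 Mb, 37.5% of Th2 and 45.9% of ES domains lay with 50% or more of their length under such domains of the other list. Contact depth is unknown, so how far it limits the calling of domains cannot be stated.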
